A study of Arabidopsis thaliana with 9 samples.

Results

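The genes described here are 164 nuclear genes of Arabidopsis thaliana whose transcripts read strongly lower in both of 2 lines, L17 and sps1, than in wild type. RNA came from whole seedlings harvested after 10 days in the dark, with 3 one-colour Affymetrix arrays for each line. Wild type was the accession Col-0, which the labels also give as the background of both other lines. The labels call L17 a phyA' line and give sps1 by its name alone, and they do not say what either line carries or whether its arrays came from separate sets of plants. The labels record no special treatment of any line.

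The genes were selected on the differences of both lines from wild type. A gene was included when its probe set named it alone, when its mean log2(signal + 16) in L17 and in sps1 was each at least 1.5 below the wild type mean, and when all 3 wild type arrays read above all 6 others. Plastid and mitochondrial genes and genes whose symbols begin with CYP or UGT were left out. Of 13348 probe sets that could have been included, 164 met these conditions, which is 1.23%, and the mirrored conditions for higher genes were met by 36, or 0.27%. The 164 probe sets name 164 different genes among 13192. All 164 lie on chromosomes 1 to 5, which follows from leaving out plastid and mitochondrial genes. Since the differences from wild type chose the genes, they are given below as a description without a test. Both lines were compared with the same wild type arrays. In whole seedlings, fewer cells of a type and less RNA per cell cannot be told apart.

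A seedling kept in darkness lengthens its hypocotyl on seed reserves and does not build green chloroplasts. Alongside growth, plants keep a set of defence genes at a variable level, including chitinases and glucanases that attack microbial walls, oxidases of the berberine bridge enzyme-like family, peroxidases of the cell wall, and intracellular receptors that detect pathogen molecules. Seeds in turn store oleosins and late embryogenesis abundant (LEA) proteins, whose transcripts normally disappear after germination.

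The arrays were scaled alike, with median signals between 138 and 155. The third wild type array stood apart, with a mean correlation of 0.954 to the other wild type arrays across probe sets, where each L17 and sps1 array reached 0.981 to 0.984 within its own line. Of the heat shock markers looked for, 3 were measured, and their summed signal was 17742 on the third wild type array against 315 to 744 on the other 8 arrays. Among dark-grown seedling markers only PORB could be measured, and it read 1673 to 2730.1 in wild type and 3596 to 5188 in the other lines. The 4 measured root markers summed to 21609 to 27184 in wild type, 23259 to 26298 in L17 and 25276 to 33339 in sps1. None of the 11 seed markers looked for was measured under a single name. Of 3 control ratios of 3' to 5' signal, 1 of ubiquitin was 1.80 to 1.96 in wild type, 2.24 to 2.43 in L17 and 2.41 to 2.53 in sps1. The other ubiquitin ratio overlapped between lines (0.931 to 1.27, 1.06 to 1.27 and 1.06 to 1.46), and the GAPDH ratio was highest on the third wild type array (1.45, against 1.005 to 1.202 elsewhere). The part of these ratios in the results was not tested.

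**Figure D1:**
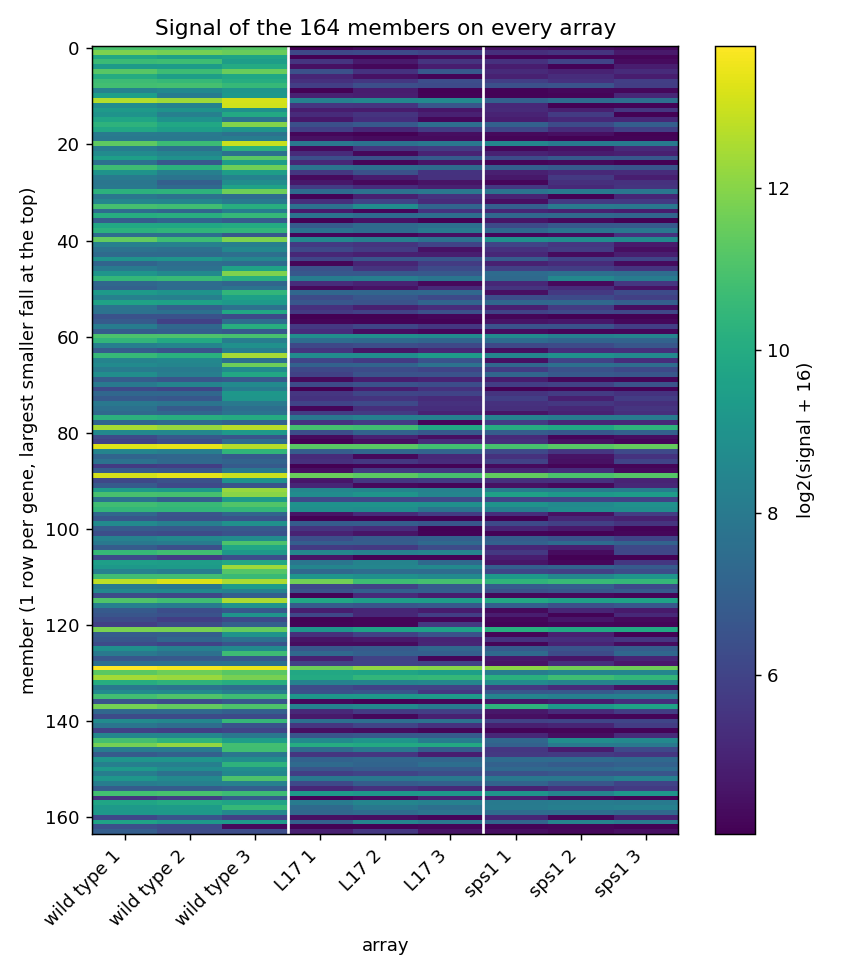
Signal of the 164 genes on each of the 9 arrays, as log2(signal + 16) in colour, with 1 row per gene and the gene with the largest smaller difference from wild type at the top. The 3 wild type columns are brighter than the 6 others in every row, as the choice of genes requires, and 44 genes are brighter on the third wild type array by more than 2 times than on each of the other wild type arrays.

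Across the 164 genes the median wild type mean was 397 signal units, from 43.5 to 12262, against a median of 106 over all probe sets that could have been included. Mean signals had a median of 49.6 in L17 and 31.0 in sps1. The median difference from wild type was -2.11 in L17 and -2.30 in sps1 on the log2(signal + 16) scale, while the median over all 22746 probe sets was 0.01 and -0.01. Both differences reached -2 for 75 genes, -3 for 27, -4 for 13 and -5 for 4. For 17 genes all 6 arrays of the lines read under 16, the pseudocount, and for 78 genes none did. Detection calls were not used here, and a difference that ends under 16 understates the ratio of the signals.

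The largest differences belonged to genes that went from a bright wild type signal to almost none. AT5G45500, which encodes a protein with leucine-rich repeats, read 2002, 1953 and 2313 in wild type, 0.789, 3.55 and 4.21 in L17 and 6.05, 4.96 and 3.83 in sps1. Its difference from wild type was -6.80 in L17 and -6.65 in sps1, with a model SE of 0.13. No array of either line exceeded 6.05, and L17 and sps1 overlapped. ZW9, a TRAF-like protein gene, read 3653, 3349.8 and 2949 in wild type, 55.4, 58.9 and 48.3 in L17 and 24.5, 28.8 and 10.02 in sps1. AT3G55790 read 902, 732 and 821 in wild type, 0.582, 0.941 and 4.02 in L17 and 1.58, 1.44 and 1.98 in sps1, and its 6 values in the lines all lay under the pseudocount. AT3G47250, whose product has a plant domain of unknown function, read 633, 648 and 982 in wild type, 6.30, 3.31 and 12.02 in L17 and 12.3, 1.83 and 12.6 in sps1.

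The next 3 genes had wild type arrays within 2 times of each other. AT5G05750, of the DNAJ co-chaperone family, read 1794, 1866 and 1466 in wild type, 41.1, 68.1 and 60.3 in L17 and 69.6, 75.1 and 40.1 in sps1. AT3G43740, another leucine-rich repeat protein gene, read 1029, 695 and 893 in wild type, 17.62, 6.96 and 1.498 in L17 and 14.7, 22.5 and 12.3 in sps1. AT1G16260, for a wall-associated kinase-like receptor, read 311, 387 and 531 in wild type, 1.195, 11.3 and 1.23 in L17 and 1.62, 3.25 and 2.96 in sps1. In all of these, L17 and sps1 arrays overlapped each other while both were far below wild type. AT5G26270 differed from wild type by -4.64 in L17 and -4.74 in sps1, AT5G55790 by -4.34 in L17 and -3.84 in sps1 and AT3G44430 by -3.70 in L17 and -3.67 in sps1. These 3 had wild type means of 1398 ± 299, 532 ± 83.6 and 231 ± 33.8 (SD, n = 3). AT2G23270 spread more widely in wild type and read 505, 292 and 933 in wild type, 22.2, 29.1 and 14.8 in L17 and 16.5, 37.7 and 1.28 in sps1. AT2G16005 read 837, 491 and 200.1 in wild type and differed by -4.08 in L17 and -3.79 in sps1. AT3G18250 read 1249, 889 and 3974 in wild type and differed by -3.78 in L17 and -3.94 in sps1, or by -3.15 in L17 and -3.31 in sps1 without the third wild type array.

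**Figure D2:**
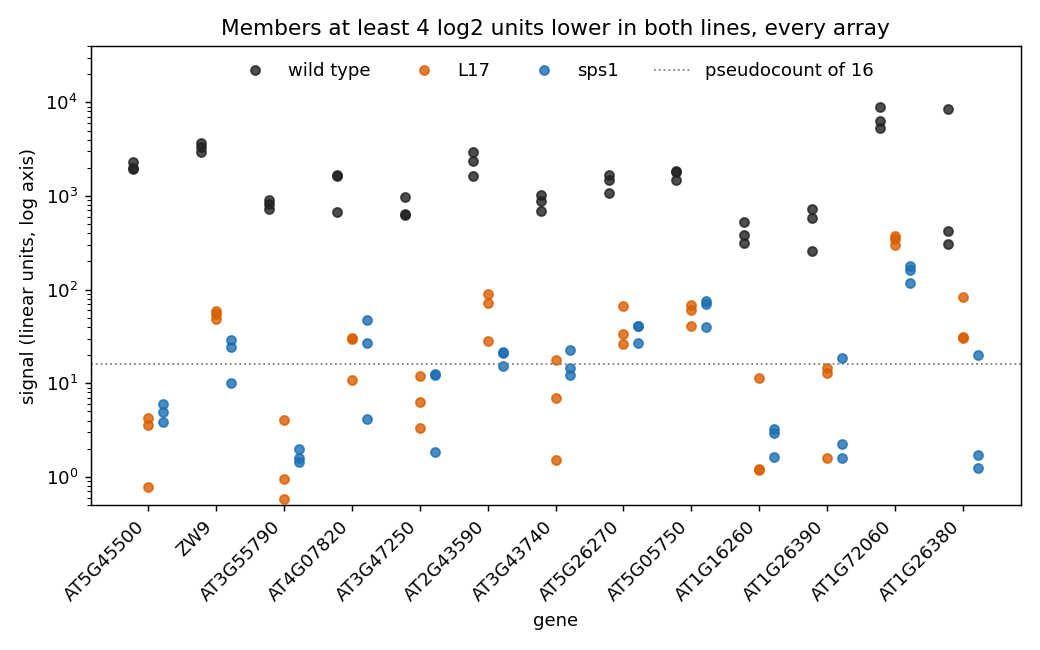
Signal on every array (linear units on a log axis) of the 13 genes that were at least 4 log2 units lower in both lines, with 3 points per line and a dotted line at 16. Wild type points lie between 261 and 8901, and the points of L17 and sps1 lie below them for each gene. For AT1G26380 one wild type array reads 8554 and the other wild type arrays 418 and 308.

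Secreted defence proteins made up 7 of the 164 genes. The chitinases, which cleave chitin of fungal walls, were represented by CHI, AT2G43590 and AT2G43610. CHI read 1702, 1195 and 3119 in wild type, 193, 172 and 154 in L17 and 106, 88.1 and 78.2 in sps1. AT2G43590 read 2382, 1645 and 2919 in wild type, 71.1, 28.1 and 89.2 in L17 and 21.1, 15.4 and 21.8 in sps1, the deeper of the pair in both lines. AT2G43610 kept the most signal, with 3538, 3403 and 2822 in wild type, 517, 777 and 760.0 in L17 and 1092, 935 and 947 in sps1. Genes of the CAP family, which holds the pathogenesis-related marker PR1, were AT4G07820 and AT2G19970. AT4G07820 read 1615, 1673 and 679 in wild type, 30.5, 10.8 and 29.9 in L17 and 26.7, 47.1 and 4.16 in sps1, with the third wild type array lower than the other wild type arrays and still well above both lines. The remaining members were AT4G16260, of the glycosyl hydrolase family that holds beta-1,3-glucanases, at -2.52 in L17 and -1.87 in sps1 from wild type, and AT1G20030, of the thaumatin family, at -1.5004 in L17 and -2.15 in sps1. Without the third wild type array, at 4169 beside 1921 and 1899 on arrays 1 and 2, AT4G16260 gave -2.15 in L17 and -1.4953 in sps1.

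Of the salicylic acid and pathogenesis-related list, 9 of 27 genes were measured, 4 of them among the 164. The other 5, AT2G43580, AT2G43620, AT4G33720, PR-1-LIKE and SAG101, gave 0 calls in either line against wild type (limma adjusted p under 0.05), where 11.4% of all probe sets were called in L17 and 14.6% in sps1. In this and the other lists, genes of the 164 were taken out before calls were counted, while the shares over all probe sets include them. AT4G33720 and AT2G43580 were dim, with wild type means of 12.4 and 21.4, and had little room to fall. With 5 genes, 0 calls do not show that the rest of the list was unchanged. SAG101, a lipase-like partner of immune receptors, read 97.2, 115 and 156 in wild type, 152, 205 and 174 in L17 and 130.2, 122 and 142 in sps1. AT2G43620, a chitinase gene beside the others, read 67.4, 52.98 and 249 in wild type, 232, 287 and 331 in L17 and 87.3, 87.3 and 90.2 in sps1, with a log2 difference of 1.37 in L17 (limma adjusted p = 0.0812). The low reading was therefore not shared by every chitinase gene of that neighbourhood. The jasmonate list had only PDF1.2 and THI2.1 measured, both at or below 46.03 on every array and neither called.

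The berberine bridge enzyme-like family, of flavin-dependent oxidases that act on cell wall sugars and on defence compounds, gave 6 of the 164 genes out of 22 measured. AT1G26390 read 722, 261 and 576 in wild type, 14.7, 12.9 and 1.57 in L17 and 1.59, 2.22 and 18.8 in sps1. AT1G26410 read 192, 91.8 and 679 in wild type, 18.202, 1.97 and 8.38 in L17 and 2.04, 3.04 and 0.931 in sps1, and AT1G26420 read 264, 183 and 1155 in wild type, 4.15, 30.3 and 36.9 in L17 and 3.14, 7.07 and 20.9 in sps1. The wild type values of these genes spread widely, and the third array was the highest for both AT1G26410 and AT1G26420, which without it gave -2.60 in L17 and -3.06 in sps1 and -2.69 in L17 and -3.22 in sps1. AT1G26380 read 418, 308 and 8554 in wild type, 31.5, 30.1 and 82.8 in L17 and 19.9, 1.26 and 1.73 in sps1. Its difference from wild type was -4.15 in L17 and -5.58 in sps1, and -2.64 in L17 and -4.07 in sps1 without the third wild type array. AT1G30700 and AT5G44440 were bright in wild type and kept more signal. AT5G44440 read 5388, 4831 and 3420.1 in wild type, 998, 1371 and 1451 in L17 and 1156, 1694 and 1390.3 in sps1, while AT1G30700 missed the threshold without the third wild type array, at -1.33 in L17 and -1.21 in sps1.

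Of the 16 measured genes of the family outside the 164, 2 were called lower in each line and 0 higher, with a median log2 difference of -0.19 in L17 and -0.37 in sps1. Over all probe sets 6.12% were called lower in L17 and 7.94% in sps1. The choice had already taken the strongly lower genes of the family out of the 16. Several of the 16 were also dim in wild type, such as AT1G30740, AT1G34575 and AT1G30710 with means of 1.22, 3.12 and 8.49, and had little room to fall. The medians thus do not show that the rest of the family was unchanged. AT4G20860 read 1579, 1198 and 2122 in wild type, 655, 747 and 519.7 in L17 and 141, 63.8 and 146 in sps1. It fell by 3.66 on the log2 scale in sps1 (limma adjusted p = 0.000191) and by 1.30 in L17 (limma adjusted p = 0.0298), the latter call being lost without any 1 of the L17 arrays or without wild type array 1 or 3 (adjusted p between 0.0619 and 0.102). AT5G44410 fell by 0.98 and 0.87, calls lost when wild type array 1 or 2, L17 array 1 or 3 (for L17) or any 1 of the sps1 arrays (for sps1) was left out (adjusted p between 0.053 and 0.0931), and under the replicate block (0.0531 and 0.0618). By contrast AT5G44380 read 4282 to 5584 on all 9 arrays and was not called.

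Resistance proteins, receptors inside the cell that detect pathogen effectors, gave 7 genes with modest wild type signals, from 76.3 to 406 on average. CSA1, a receptor gene of the TIR class, read 128, 169 and 157 in wild type, 1.94, 17.05 and 37.05 in L17 and 14.7, 22.02 and 4.22 in sps1. AT4G16900, also of the TIR class, read 76.1, 65.4 and 87.5 in wild type, 2.95, 1.28 and 1.91 in L17 and 8.06, 11.3 and 23.4 in sps1. AT1G15890 read 118, 158 and 200.3 in wild type, 3.35, 7.13 and 20.98 in L17 and 29.7, 22.1 and 6.71 in sps1, and AT5G63020 read 197, 116 and 188 in wild type, 27.1, 13.9 and 22.5 in L17 and 13.7, 37.6 and 5.09 in sps1. Every line array of these 4 genes read 37.6 or less. AT1G57630, AT1G72900 and AT5G35450 differed from wild type by -3.39, -2.39 and -1.72 in L17 and by -2.90, -2.72 and -1.92 in sps1. AT1G72900 read 247, 185 and 787 in wild type, and without the third of these arrays its differences were -1.79 in L17 and -2.12 in sps1. In the list of such receptors 6 genes were measured, with CSA1 the only one among the 164. Of the other 5, LOV1 rose in L17 by 1.01 (limma adjusted p = 0.0111) and in sps1 by 0.76 (limma adjusted p = 0.0284, lost without wild type array 1 or 2 or any 1 of the sps1 arrays, at 0.0678 to 0.0925). AT4G19500 fell by 3.92 in sps1 (limma adjusted p = 5.16e-05) and read 337, 378 and 302 in L17 against 329, 306 and 354 in wild type.

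AT1G72060, for a small serine-type peptidase inhibitor, was one of the brightest of the strongly lower genes, with 6257, 5303 and 8901 in wild type, 297, 351 and 374 in L17 and 117, 163 and 178 in sps1. Of the other 7 measured peptidase inhibitors 1 was called higher and 1 lower in L17, where 5.32% and 6.12% of all probe sets were. In sps1 0 were called higher and 2 lower, where 6.68% and 7.94% of all probe sets were. AT1G17860 fell by 0.73 in L17 (limma adjusted p = 0.03) and by 0.82 in sps1 (limma adjusted p = 0.0152). The first call was lost without wild type array 2, any 1 of the L17 arrays or sps1 array 2 or 3 (0.05003 to 0.0984) and under the replicate block (0.0694), and the second call without sps1 array 1 (0.0547). CYS1, a cysteine protease inhibitor gene, fell by 0.53 in sps1 alone of the 2 comparisons (limma adjusted p = 0.0242, lost without array 1 or 2 of wild type or sps1 at 0.0668 to 0.0809, and under the replicate block at 0.0655). AT1G72290 rose in L17 by 1.87 (limma adjusted p = 0.00921), and read 12.1, 2.82 and 3.44 in wild type, 39.8, 57.97 and 107 in L17 and 2.27, 17.58 and 3.51 in sps1.

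The list of glucosinolate, myrosinase and jacalin genes, a defence system of the cabbage family, had 10 measured genes and none among the 164. Of these 2 were called higher and 1 lower in L17, where 5.32% and 6.12% of all probe sets were. In sps1 3 were called higher and 3 lower, where 6.68% and 7.94% of all probe sets were. AT1G52100, a jacalin lectin gene, read 1623, 1409 and 877 in wild type, 955, 765 and 970.4 in L17 and 15.3, 25.4 and 9.08 in sps1. It fell by 5.32 in sps1 (limma adjusted p = 1.33e-05) and was not called in L17 (adjusted p = 0.284). AT1G52000, of the same family, rose in both lines, by 3.34 in L17 (limma adjusted p = 6.77e-05) and 1.78 in sps1 (limma adjusted p = 0.00124). BGLU19, a beta-glucosidase gene, rose by 1.53 in L17 (limma adjusted p = 0.0105) and fell by 2.77 in sps1 (limma adjusted p = 0.000466). JAL22 was the gene called lower in L17, by -0.55 (limma adjusted p = 0.0416), a call lost under the replicate block (0.1) and without any 1 array other than sps1 array 1 (0.0504 to 0.134). In sps1 JAL22 was also called lower, by -0.83 (limma adjusted p = 0.00609). That call held under the replicate block (0.0247) and with each array left out (at most 0.0269). AT1G52070 was called higher in sps1, by 0.78 (limma adjusted p = 0.0325), a call lost under the replicate block (0.0774) and without any 1 of the wild type arrays, L17 array 2 or sps1 array 1 or 2 (0.0508 to 0.0958). AT1G52060 rose by 1.42 in sps1 (limma adjusted p = 0.00519). A jacalin gene outside that list, JAL33, was among the 164 and read 9799, 10582 and 6629.8 in wild type, 2419, 2472 and 1772 in L17 and 1935, 2358 and 2792 in sps1.

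Class III peroxidases, which use hydrogen peroxide in the cell wall, gave 4 genes. AT5G64120 had the highest wild type mean of all 164, with 13742, 12168 and 10876 in wild type, 3015, 4505 and 4088 in L17 and 4216, 3239 and 3115 in sps1. AT5G39580 read 2606, 1591 and 7847 in wild type, 219, 187 and 224 in L17 and 340.3, 239 and 239 in sps1. Without the third wild type array AT5G39580 gave -3.19 in L17 and -2.85 in sps1. AT2G18980 and AT1G14550 differed from wild type by -2.16 in L17 and -2.27 in sps1 and by -2.12 in L17 and -2.02 in sps1. Wild type array 3 read 273 for AT2G18980 and 533 for AT1G14550, and without it the differences became -2.83 in L17 and -2.93 in sps1 and -1.33 in L17 and -1.23 in sps1, so AT1G14550 did not reach the threshold.

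Enzymes and carriers of small molecules made up 12 genes, among them glutathione and glycosyl transferases and MATE transporters that remove toxic compounds. AT3G13610, the feruloyl-CoA hydroxylase gene of scopoletin synthesis, read 2738, 1703 and 3647 in wild type, 367, 278 and 188 in L17 and 463, 418 and 386 in sps1. HEMA2, an early enzyme gene of tetrapyrrole synthesis, read 297, 266 and 519 in wild type, 99.7, 84.8 and 94.4 in L17 and 115, 70.5 and 88.7 in sps1. In HEMA2 the L17 and sps1 arrays overlapped, while in AT3G13610 every sps1 array read above every L17 array. GSTU25, a glutathione transferase gene, read 262, 257 and 1714 in wild type, 152, 231 and 102 in L17 and 31.5, 11.6 and 56.6 in sps1, and without the third wild type array its differences were -0.70 in L17 and -2.59 in sps1. AT5G42830, for an acyl transferase, differed from wild type by -3.06 in L17 and -3.80 in sps1. In 10 of the 12 genes sps1 was the lower of the 2 lines.

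Proteins of the maturing seed gave 7 genes, of LEA, oleosin and related families. AT3G17520, a LEA gene, read 3316, 4559.7 and 1799 in wild type, 1055, 957 and 959 in L17 and 116, 250.4 and 236 in sps1. AT2G25890, of the oleosin family that coats seed oil bodies, read 1482, 1725 and 568 in wild type, 346, 293 and 317 in L17 and 34.5, 4.805 and 53.4 in sps1. In both genes sps1 lay below L17 on every array, and the third wild type array was the lowest of wild type. AT1G54870 read 1853, 1752 and 1090.0 in wild type, 187, 413 and 128 in L17 and 112, 236 and 228 in sps1, and AT2G23110 read 1413, 1534 and 1069.9 in wild type, 263, 275 and 207 in L17 and 150.2, 363 and 262 in sps1. On the third wild type array all 7 read below each of the other wild type arrays, and without that array the differences from wild type were larger for all 7. On the log2(signal + 16) scale the sps1 mean was below that of L17 for all 7, with a difference of -0.02 for AT2G23110, whose mean signal was higher in sps1 (258 against 248), and the difference between lines was called for AT3G17520 and AT2G25890 alone.

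Chaperones, which help proteins fold, gave 6 genes that divide by the reading on the third wild type array. Hop3, a co-chaperone gene linking HSP70 and HSP90, read 401, 334 and 3088 in wild type, 122, 128 and 195 in L17 and 141, 179.9 and 168 in sps1. AT2G20560, a DNAJ gene, read 229, 254 and 2033 in wild type, 107, 102 and 150.5 in L17 and 116, 158 and 125 in sps1, and AT5G51440, a small heat shock protein gene, read 539, 389 and 3773 in wild type, 90.3, 90.2 and 90.9 in L17 and 158, 181 and 166 in sps1. In these 3 the third array read more than 6 times each of the other wild type arrays, and the heat shock markers AT1G53540 and AT2G29500 also exceeded that ratio, while the remaining one, ATHSP22.0, read 113, 102 and 404 in wild type. Without that array Hop3 gave -1.25 in L17 and -1.10 in sps1 and AT2G20560 -0.94 in L17 and -0.80 in sps1, short of the threshold. AT5G51440 then gave -2.16 in L17 and -1.37 in sps1. In the DNAJ genes AT5G05750, AT1G65280 and AT1G72070 the 3 wild type arrays lay within a narrow range, and AT1G72070 read 1217, 1319.8 and 1349.6 in wild type, 191, 158 and 236 in L17 and 150.0, 204 and 223 in sps1.

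The protein kinases other than AT1G16260 were AT3G61160, AT1G60630, AT1G51890 and AT4G18950. AT3G61160, of the shaggy-like family, read 2504, 3065 and 2454 in wild type, 914, 853 and 717 in L17 and 269, 340.5 and 344 in sps1. Among cell wall enzymes PME61, a pectin methylesterase gene, read 411, 326 and 188 in wild type, 21.7, 3.10 and 16.1 in L17 and 15.04, 11.8 and 13.7 in sps1. CSLC04, a gene of xyloglucan backbone synthesis, read 1769, 1932 and 1628 in wild type, 646, 570.4 and 576 in L17 and 524, 322 and 533 in sps1. For CSLC04 every sps1 array read below every L17 array, and for PME61 the lines overlapped. MMP, a matrix metalloproteinase gene, and SBT3.5, a subtilase gene, were among those for which the third wild type array was high, and without it gave -1.61 in L17 and -1.55 in sps1 and -1.64 in L17 and -1.28 in sps1.

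Pseudogenes, by the RefSeq annotation, were 10 of the 164, or 6.10%, against 7.46% of all probe sets that could have been included. The brightest was AT1G35612, which read 913, 693 and 526 in wild type, 42.2, 17.7 and 37.01 in L17 and 50.2, 22.2 and 41.3 in sps1. AT2G13970 read 228, 229 and 264 in wild type, 6.14, 4.09 and 4.26 in L17 and 2.19, 1.24 and 1.69 in sps1, with no line array above 6.14. The other 8 had wild type means between 58.03 and 254.

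The remaining 96 genes were put in no role group. Their wild type means ran from 43.5 to 9109.7, with median differences from wild type of -1.99 in L17 and -2.24 in sps1. Among the brightest were AT5G25280, at 8959, 10449 and 7921 in wild type, 2949.8, 2532 and 1913 in L17 and 2698, 2017 and 2304 in sps1, and AT1G62510, of the lipid transfer protein superfamily, at 6963, 9751 and 5911 in wild type, 3301, 1694 and 1863 in L17 and 1339, 1532 and 1444 in sps1. AT4G39675 differed from wild type by -1.97 in L17 and -2.40 in sps1, with a wild type mean of 5671 ± 908 (SD, n = 3). GRXC1, a glutaredoxin gene, read 2059, 2100.3 and 1926 in wild type, 442, 442 and 398 in L17 and 400.3, 284 and 320.4 in sps1. AT5G25280, AT1G62510 and GRXC1 kept at least 284 signal units on every array of both lines. CLE44, for a signalling peptide that holds back xylem formation, read 904, 895 and 999.99 in wild type, 96.5, 148 and 169.9 in L17 and 59.2, 88.6 and 92.9 in sps1. AT2G33220, of the GRIM-19 family of mitochondrial complex I subunits, read 1223, 1096 and 1014 in wild type, 224, 285 and 289 in L17 and 304, 255 and 258 in sps1.

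A single gene of the 164 had a further probe set naming it alone, and that probe set disagreed. For AT1G23440 the chosen probe set read 1389, 1379 and 1399 in wild type, 447, 416 and 206 in L17 and 288, 421 and 435 in sps1. The other read 1651, 1812 and 1824 in wild type, 2725, 2826 and 1616 in L17 and 2054, 2025 and 2429 in sps1, with differences from wild type of 0.39 in L17 and 0.29 in sps1. The lower reading of AT1G23440 thus rests on 1 of its 2 probe sets, and it is the dimmer one. No such check was possible for the other 163 genes. Of the 164 probe sets, 3 carry the suffix that marks probes shared by several transcripts.

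At the threshold, the genes just inside were AT1G20030, AT5G43030, AT3G13440, AT5G41140 and AT1G54860, with smaller differences of -1.5004, -1.5011, -1.51, -1.52 and -1.53. Just outside were AT5G63180, AT1G24350, AT3G03670, AT1G74360 and AT3G25610, with -1.497, -1.49, -1.48, -1.48 and -1.47. The 2 sides of the threshold hold genes of like size. AT5G43030 read 68.8, 58.02 and 3.66 in wild type, 1.06, 1.11 and 2.03 in L17 and 1.55, 2.02 and 1.21 in sps1, so that the third wild type array lay only just above the lines. A further 6 genes passed both differences with at least 1 overlapping array.

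Many of the genes read differently on the third wild type array. That array read more than 2 times each of the other wild type arrays for 44 genes, or 26.8%, and less than 0.5 times each for 6, or 3.66%. Over all probe sets that could have been included the shares were 15.4% and 5.20%. The third array entered the wild type mean used in the choice, so a high reading there helped a gene to be included. The gap between these shares is therefore partly set by the choice of genes. AT1G26380 was the most extreme, followed by AT2G35730, AT4G28085 and AT2G20560, at 20.5, 8.59, 8.13 and 7.998 times the higher of the other wild type arrays. AT4G28085 read 573, 625 and 5082 in wild type, 334, 349.6 and 370.3 in L17 and 106, 125 and 98.3 in sps1. With that array left out of the means, 130 of the 164 still passed -1.5 in both lines. They included 16 of the 44 genes high on that array and 114 of the other 120. The low readings on the third array were those of AT4G07820, AT2G16005, AT2G18980, AT2G25890, AT1G72100 and AT5G43030.

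**Figure D3:**
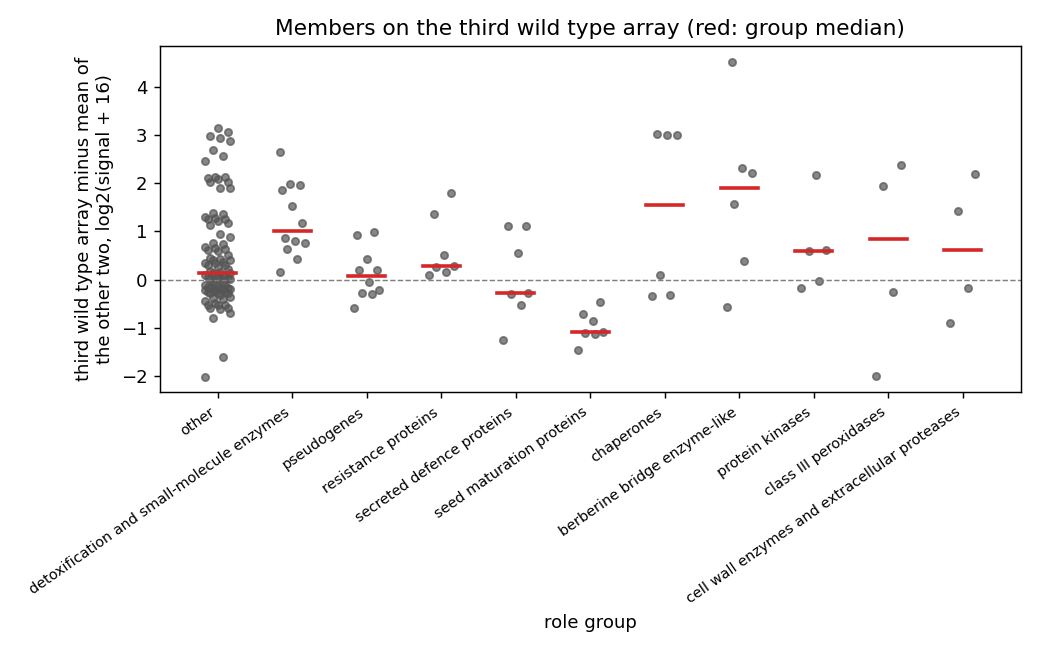
Wild type array 3 minus the mean of wild type arrays 1 and 2, in log2(signal + 16), for each of the 164 genes by role group, with the group median in red. Points near 0 mark genes whose wild type arrays read alike, the 7 seed maturation genes all lie below 0, and the highest point, of the berberine bridge enzyme-like group, is AT1G26380.

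The comparison of sps1 with L17 was not itself a condition of the choice and was tested across all 22746 probe sets. The choice did require both lines to read low, which limits how far apart they can lie. The shares below are therefore partly set by it. Among the 164 genes, 9 were called lower in sps1 than in L17 and 1 higher (limma adjusted p under 0.05), which is 5.49% and 0.610%. Over all probe sets 3.72% were called lower and 3.14% higher, so the share of these genes called either way, 6.10% against 6.86%, was near the background. The median difference was -0.10 for the 164 genes and -0.02 for all probe sets, and 96 of the 164 had the lower log2 mean in sps1. Without the third wild type array the counts were 18 lower and 4 higher, the 10 first called among them, or 13.4% of the 164. In that fit 6.48% of all probe sets were called lower and 5.06% higher, 11.5% together. The remaining 154 genes were not called, which does not show that the lines were alike: the median SE of the difference was 0.31 against 0.21 over all probe sets. Arrays of the 2 lines did not overlap for 49 of the 164 genes, or 29.9%, where 30.7% of all probe sets did not.

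The largest called difference was that of AT5G43450, for a 2-oxoglutarate-dependent oxygenase, which read 724, 685 and 951 in wild type, 213, 321 and 149 in L17 and 8.23, 2.65 and 33.6 in sps1. The sps1 minus L17 difference was -3.05 ± 0.38 (SE, limma adjusted p = 0.00234). AT2G25890 and AT3G17520, the oleosin and LEA genes above, gave -2.999 ± 0.50 (SE, limma adjusted p = 0.00931) and -2.28 ± 0.36 (SE, limma adjusted p = 0.00748). AT1G58150 read 344, 348 and 224 in wild type, 81.6, 91.5 and 93.7 in L17 and 19.3, 4.99 and 21.8 in sps1, a difference of -1.79 ± 0.25 (SE, limma adjusted p = 0.0044). In these 4 genes L17 was at an intermediate level, between wild type and sps1, on every array. AT3G61160 gave -1.34 ± 0.16 (SE, limma adjusted p = 0.0022), and AT5G16250 -0.93 ± 0.13 (SE, limma adjusted p = 0.00459). AT5G16250 read 1792, 2130.4 and 1699.8 in wild type, 568, 582 and 607 in L17 and 324, 286 and 292 in sps1, with each line in a range of its own.

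Calls of the other 4 genes depended on single arrays. AT1G65370, a TRAF-like gene as ZW9 is, read 181, 179 and 188 in wild type, 45.9, 47.4 and 45.3 in L17 and 7.33, 24.9 and 9.84 in sps1, a difference of -1.10 ± 0.20 (SE, limma adjusted p = 0.0144), lost without L17 array 2 or sps1 array 3 (adjusted p = 0.0587 or 0.0597). AT1G72060 gave -1.09 ± 0.22 (SE, limma adjusted p = 0.0227), lost without L17 array 2 or 3 or sps1 array 1 or 2 (0.0622 to 0.0843). ZW9 gave -0.95 ± 0.21 (SE, limma adjusted p = 0.029), lost without any 1 of the L17 arrays or sps1 array 1 or 3 (0.0574 to 0.107). AT3G54040 was the single gene called higher in sps1, at 1.45 ± 0.28 (SE, limma adjusted p = 0.0184), lost without L17 array 1 or 3 or sps1 array 3 (0.0563 to 0.0685). It read 3321, 2745 and 2103 in wild type, 312, 363 and 243 in L17 and 1256, 616 and 796 in sps1, so here the line nearer to wild type was sps1.

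**Figure D4:**
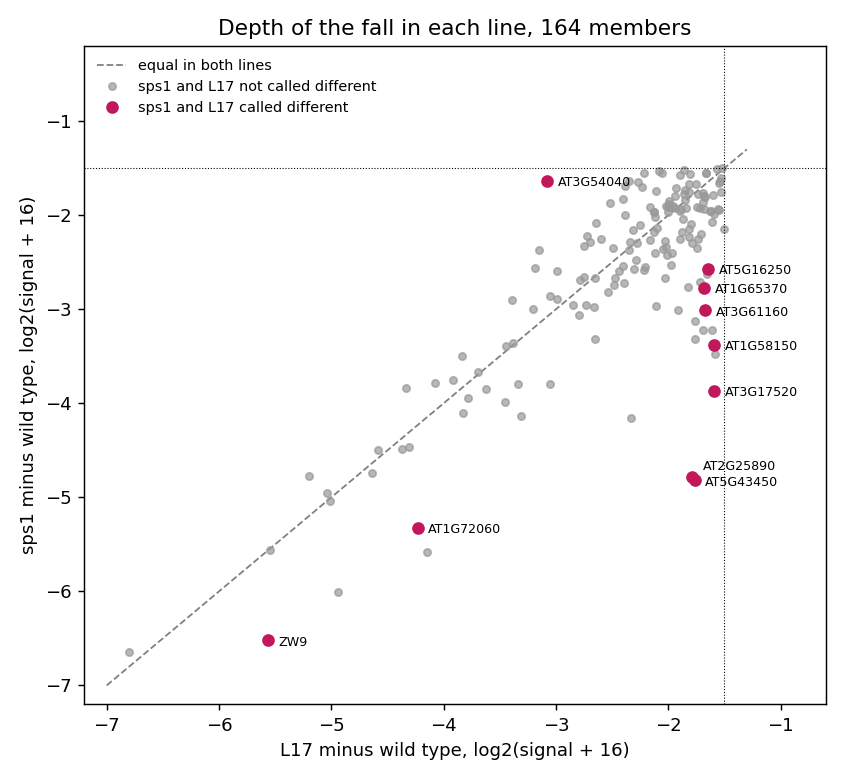
Difference from wild type in L17 (horizontal axis) and in sps1 (vertical axis) for the 164 genes, both in log2(signal + 16), with dotted lines at the threshold of -1.5 and a dashed line where both lines are equal. The 10 genes called different between sps1 and L17 are in colour and named, 9 of them below the dashed line and AT3G54040 above it.

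Position on the chromosomes was not used in the choice either. The genes were spread over all 5 chromosomes, with 50, 28, 32, 17 and 37 on chromosomes 1 to 5. That is 30.5%, 17.1%, 19.5%, 10.4% and 22.6%, beside 25.9%, 16.4%, 20.4%, 14.7% and 22.5% of all probe sets that could have been included. In the order of protein-coding genes and pseudogenes, 28 of the 164, or 17.1%, had another of the 164 within 3 genes. Of 13023 other genes 396, or 3.04%, had one of the 164 that near. Whether neighbouring genes of like sequence share probe signal was not tested.

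The 28 genes formed 12 runs. The longest, on chromosome 1, held AT1G26380, AT1G26390, AT1G26410 and AT1G26420. Between them AT1G26400 read 16.1, 17.95 and 12.7 in wild type, 2.65, 9.77 and 20.9 in L17 and 12.3, 3.20 and 1.95 in sps1, near the bottom of the scale in every line. On chromosome 2 the chitinase genes CHI, AT2G43590 and AT2G43610 alternated with AT2G43580 and AT2G43600, which were dim, and ended beside AT2G43620, which was not lower. The other run of 3 held AT1G72060, AT1G72070 and AT1G72100, an inhibitor, a DNAJ domain and a LEA gene.

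The other 9 runs were pairs. Pairs of one family were AT1G60730 with AT1G60750, of the aldo/keto reductases, and AT2G20950 with pEARLI4, of phospholipase-like proteins. AT1G60730 read 404, 358 and 1428 in wild type, 183, 178 and 190.5 in L17 and 45.6, 50.97 and 51.8 in sps1, and pEARLI4 read 1718, 1515 and 2186 in wild type, 494, 501 and 462 in L17 and 500.0, 398 and 485 in sps1. Without the third wild type array, the differences were -0.99 in L17 and -2.60 in sps1 for AT1G60730 and -1.37 in L17 and -2.01 in sps1 for AT1G60750, so both missed the threshold in L17. AT1G80960 and AT1G80970 read between 88.2 and 134 in wild type and no higher than 28.7 in the lines. AT3G29120, a pseudogene, and AT3G29140 lay on both sides of AT3G29130, which itself differed from wild type by -1.37 in L17 and -1.32 in sps1. The remaining pairs were AT1G54860 with AT1G54870, AT4G39670 with AT4G39675, AT5G38900 with AT5G38910, AT5G53990 with AT5G54000, and AT5G63020 with GRXC1. Of these AT4G39670 gave -0.72 in L17 and -0.84 in sps1 and AT5G38900 -1.91 in L17 and -1.41 in sps1 without the third wild type array, and neither passed the threshold in both lines. The 43 measured genes beside the runs are outside the 164 by definition, and their median difference from wild type was -0.02 in L17 and 0.04 in sps1.

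**Figure D5:**
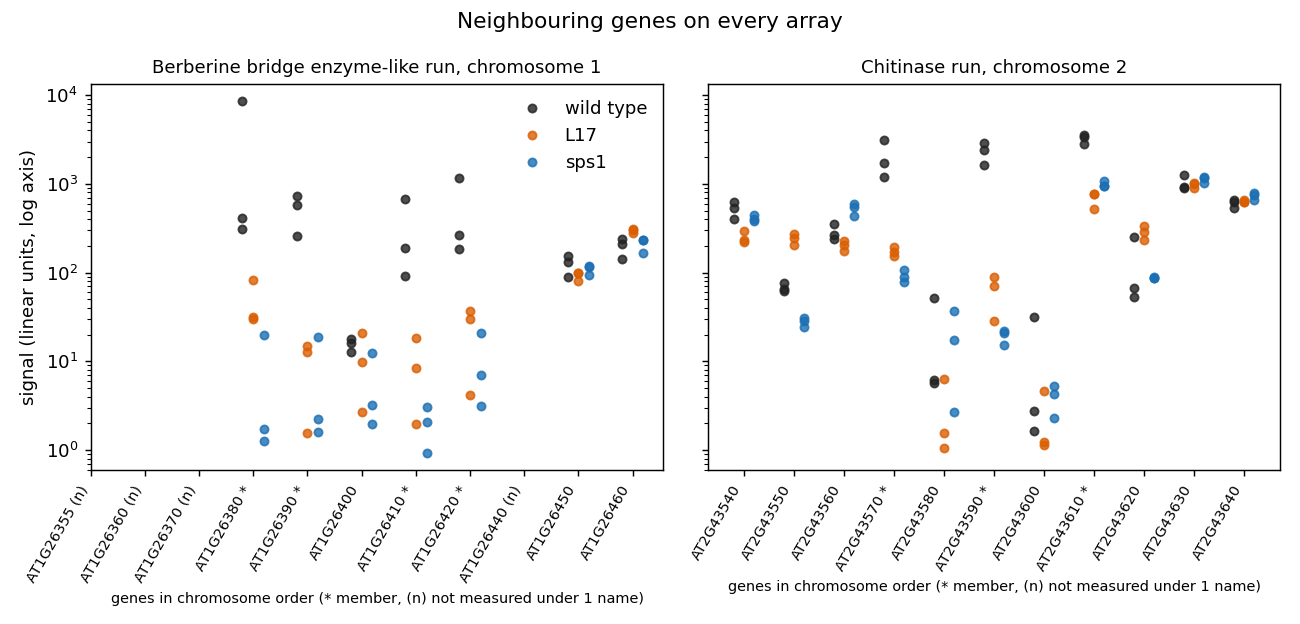
Signal on every array (linear units on a log axis) for genes in chromosome order around the berberine bridge enzyme-like run of chromosome 1 and the chitinase run of chromosome 2. Asterisks mark the 4 and 3 genes of the 164, whose wild type points lie above all points of both lines, while the unmarked genes between and beside them do not show that gap.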

How the data were processed

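The authors deposited 1 table with an intensity on a linear scale for each of 22810 probe sets and 9 arrays. The submitters' processing notes name GCOS. How probes were summarised is not given in the sources used here. Deposited intensity values had equal means, 500.0, after trimming 2% at each end, and were not normalized further. The 64 control probe sets were left out. All tests used log2(signal + 16), a scale that understates the change of dim genes. Of 22746 probe sets 13513 name 1 gene, 503 several, and 8730 are unnamed here. Names came from the platform annotation and the RefSeq table of TAIR10.1, used for names and gene order only, with 13436 matched by gene ID and 48 by locus tag.

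Lines and replicate numbers came from sample titles. One limma model (version 3.58.1, R 4.3.3) took in the 9 arrays without a block, with Benjamini-Hochberg adjustment over 22746 probe sets and a threshold of 0.05, and its p-values cover the spread among arrays only, which may be technical. Figures and tables were made with Python 3.11.15. The number of arrays limits the precision. Tested on simulated data with 200 of 22746 probe sets changed in sps1, the procedure recovered 43% of log2 changes of 1 and 83% of changes of 2 in sps1 against L17. In L17 against wild type, with L17 changed, it recovered 44% and 80%, and in sps1 against wild type 43% and 82%. The simulated arrays shared 1 spread per probe set, and fewer probe sets changed than the 1560 to 3325 called in the data. Recovery in the data may therefore differ.

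The genes and lists were chosen with earlier results of these data known. Members were to be named if they were among the 20 with the largest smaller difference, the 10 brightest in wild type, the 5 on either side of the threshold, called between sps1 and L17, in a list, within 3 genes of each other, or far off on wild type array 3 (up to 4), and up to 4 other genes per list. Role groups, families given from general knowledge, and members and list genes named outside that rule were chosen after their values were seen. Lists of jasmonate, salicylic acid, berberine bridge enzyme-like, glucosinolate, resistance and peptidase inhibitor genes, and of root, seed, heat shock and dark-grown seedling markers, were looked up, with the brightest probe set per gene. The labels do not say that replicate numbers pair arrays, and deviations of same-numbered arrays correlated between -0.0795 and 0.0589. Promoter motifs and sequences were not analysed here.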

Additional observations from a re-analysis of the deposited data

Results flagged for a closer look

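The differences of L17 and of sps1 from the same wild type arrays were not alike for 10 of the 164 genes, by a direct limma test of sps1 against L17 (adjusted p under 0.05). That is 6.10% of the genes, near the 6.86% called over all probe sets. In 9 genes sps1 was lower: AT5G43450 (-3.05 on the log2 scale), AT2G25890 (-2.999), AT3G17520 (-2.28), AT1G58150 (-1.79), AT3G61160 (-1.34), AT1G65370 (-1.10), AT1G72060 (-1.09), ZW9 (-0.95) and AT5G16250 (-0.93). In AT3G54040 sps1 was higher, by 1.45. Of these calls 6 held with each of the 9 arrays left out, and those of AT1G65370, AT1G72060, ZW9 and AT3G54040 did not. All 10 were also called with the replicate block.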

How the results depend on the processing

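With a pseudocount of 1 the number of genes that met the conditions was 267, including all 164, and with 64 it was 85, all of them among the 164. Thresholds of -1 and -2 gave 352 and 75. Quantile normalization and median centring gave 152 each, and leaving out 1 array gave 155 to 192 (155 without the third wild type array, 130 of them among the 164). Of the 164 genes, 10 were called between sps1 and L17; the number was 23 with array weights, 21 with only these lines in the fit, 16 with trended and robust moderation, 6 at an adjusted p under 0.01, 13 with the replicate block, and 7 to 22 with an array left out (22 without the third wild type array). The share of all probe sets called between sps1 and L17 also moved, from 6.86% to 11.5% without the third wild type array, where 13.4% of the 164 were called. For the other settings the share over all probe sets is not given here, so their counts are not particular to the 164 genes. List genes outside the 164 called against wild type numbered 8 in L17 and 12 in sps1. For L17 the number was 5 among brighter probe sets, 5 with the replicate block, 2 at an adjusted p under 0.01, and 4 to 9 with an array left out (4 without L17 array 1 or 3, 5 without L17 array 2 or wild type array 1 or 2). For sps1 it was 7 at an adjusted p under 0.01, 9 with the replicate block, and 7 to 14 with an array left out (7 without sps1 array 1; 8 without sps1 array 2 or wild type array 1). Within 10 genes 49 of the 164 had another one near, against 28 within 3. All other alternatives kept these numbers within 1.5 times. Replicate numbers were not treated as pairs. The causes of these shifts were not tested. With 3 arrays per line, log2 changes of 1 were recovered in 43% to 46% of simulated cases.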

Other observations

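Without the third wild type array, 12 further genes of the 164 were called between sps1 and L17, although that array belongs to neither line: it entered the shared estimate of the spread. AT4G28085 had an sps1 minus L17 difference of -1.55 with a limma adjusted p of 0.000452 without that array and 0.258 with it. For AT1G60730, an aldo/keto reductase gene, the difference was -1.61 with 0.000235 and 0.064, and for AR781 -1.36 with 0.00135 and 0.309. CHI and GSTU25 were also among the 12, at -0.83 and -1.89. Higher in sps1 were AT5G51440 (0.79), AT4G16900 (0.71) and AT5G43520 (0.66).

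The conditions were also met by 116 probe sets that are unnamed here, 9 that name several genes, 1 of a mitochondrial gene and 5 of CYP or UGT symbols.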
